A study of Mus musculus with 12 samples.

Results

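The 7 genes described here encode glycan-binding proteins and 1 partner of theirs: the sialic acid-binding lectins Siglec1, Siglece and Siglecf, the galectins Lgals1, Lgals3 and Lgals9, and Lgals3bp, a secreted galectin-binding glycoprotein. They were followed in mouse dendritic cells (DC) exposed to poly(I:C), a synthetic mimic of viral double-stranded RNA that is sensed by TLR3 and by cytosolic RNA sensors. The members are the probe sets whose annotation names exactly 1 gene, and that gene 1 of the 7. The rule found 10 probe sets of the 45037 on the array that are not controls, for 7 of 18193 genes, and it used no measured value. The list of 7 genes itself was chosen with earlier results of these data known.

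Bone marrow of C57BL/6 mice was cultured in GM-CSF for 6 days, and all 6 groups received that treatment. The labels give 10 ng/ml GM-CSF and 2.5 µg/ml poly(I:C), and the study's methods give a higher concentration of both. The age is labelled 3 to 4 months in 1 field and 8 to 10 weeks in another. The groups are the times after poly(I:C), namely 0, 1, 3, 6, 12 and 24 h, with 2 arrays each, 1 from each of 2 experiments. Per the study's methods the DC of an experiment came from the marrow of 1 female mouse and were selected for CD11c. All arrays after 0 h are of treated cultures, so the time in culture and the exposure to poly(I:C) cannot be told apart. All comparisons with 0 h share the same 2 arrays.

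Siglecs are cell-surface receptors of leukocytes that read sialic acids, the acidic sugars that end many glycan chains. Siglec1 (CD169, sialoadhesin) has a long extracellular part and no signalling motif of its own, and it is known as an adhesion and virus-capture receptor of macrophages and some DC that interferon induces. Siglece and Siglecf carry cytoplasmic inhibitory motifs that recruit the phosphatases encoded by Ptpn6 and Ptpn11. Siglece is known from neutrophils, macrophages and DC, and Siglecf from eosinophils and alveolar macrophages. Galectins are soluble lectins that bind galactose-containing glycans, leave the cell without a signal peptide and crosslink glycoproteins such as CD45, CD44, the integrins and LAMP1. Lgals9 and Lgals3bp are known interferon-responsive genes in several cell types.

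Promoter sequences are shown first for Lgals9 and Lgals3bp, the members with the largest changes among those bright enough to be tested, and for Siglecf, the member that fell. RefSeq, build GRCm38.p6, held a promoter for 5 of the 7 genes. Each window runs from 250 bases before the transcription start to 30 bases after it, 5′ to 3′ on the strand of the gene. Searched on both strands were the interferon-stimulated response element written as GAAANNGAAA, the shorter core of the IRF family AANNGAAA, which lies inside every match of the first motif, and the GAS element TTCNNNGAA. Capitals mark the matches. The Lgals9 window lies at chr11:78984895-78985174 on the minus strand, the Lgals3bp window at chr11:118401930-118402209 on the minus strand, and the Siglecf window at chr7:43351091-43351370 on the plus strand.
Lgals9: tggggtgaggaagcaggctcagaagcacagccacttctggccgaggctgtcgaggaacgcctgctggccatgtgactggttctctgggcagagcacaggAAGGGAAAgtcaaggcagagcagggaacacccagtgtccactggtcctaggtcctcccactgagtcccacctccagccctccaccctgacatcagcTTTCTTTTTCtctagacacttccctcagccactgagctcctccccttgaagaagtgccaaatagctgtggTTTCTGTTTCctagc
Lgals3bp: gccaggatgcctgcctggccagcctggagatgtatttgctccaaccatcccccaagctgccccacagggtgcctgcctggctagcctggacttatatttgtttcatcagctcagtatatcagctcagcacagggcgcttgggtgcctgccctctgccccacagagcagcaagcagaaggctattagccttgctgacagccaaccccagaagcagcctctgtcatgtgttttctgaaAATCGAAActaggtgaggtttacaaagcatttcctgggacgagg
Siglecf: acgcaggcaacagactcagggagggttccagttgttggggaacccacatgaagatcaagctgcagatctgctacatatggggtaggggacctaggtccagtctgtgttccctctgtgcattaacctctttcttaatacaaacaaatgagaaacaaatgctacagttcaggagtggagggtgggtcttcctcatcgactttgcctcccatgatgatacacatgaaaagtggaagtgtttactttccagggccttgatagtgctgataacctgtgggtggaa

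The Lgals9 window held 2 interferon-stimulated response element matches, both read on the opposite strand, the first from -55 to -46 and the second from 16 to 25 counted from the start site. A further IRF core lay from -151 to -144. The Lgals3bp window held no match of the longer motif and 1 IRF core, from -14 to -7. None of the 3 motifs was found in the Siglecf window or in those of Lgals3 and Siglece. Of 32851 promoter windows of this length, 3.28% held the longer motif, 23.1% the IRF core and 7.83% the GAS element. These matches describe letters in a window and are not evidence of binding.

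All 12 arrays were Affymetrix mouse genome arrays with MAS5.0 signals, which are linear fluorescence intensities. The array medians lay between 70.9 and 91.4, and the mean without the top and bottom 2% between 496 and 498. A mean signal of 78.4, the median over all probe sets, was the limit for testing, and 6 of the 10 member probe sets, for 5 of the 7 genes, reached it. The 4 below it were the 3 probe sets of Siglec1 and the 1 of Siglece. Of 10 DC markers 8 reached that limit, with Itgax (CD11c) between 16176 and 24684 and Csf2rb between 22629 and 33747, while Flt3 and Cd209a did not. Macrophage markers did so for 6 of 8 genes, with Csf1r between 22071 and 32347. Since these are bulk RNA samples, fewer cells of a type and less RNA per cell cannot be told apart.

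**Figure D1:**
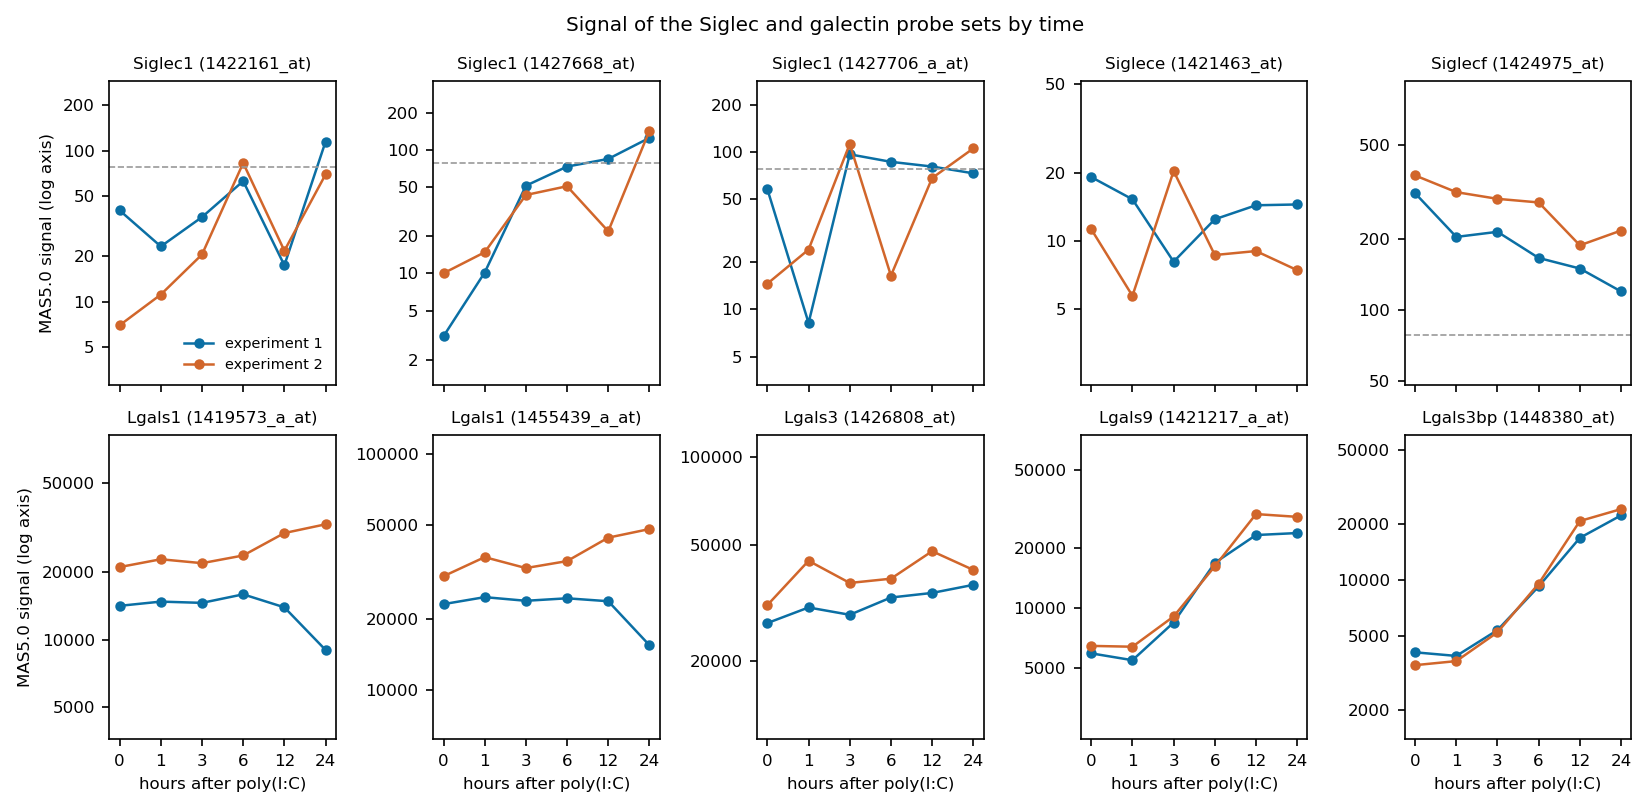
MAS5.0 signal (linear intensity on a log axis) of each of the 10 member probe sets against hours after poly(I:C), with experiment 1 in blue and experiment 2 in orange and 1 array per point. The dashed line is the signal limit for testing, 78.4. Lgals9 and Lgals3bp climb in both experiments, Siglecf declines in both, and the Lgals1 lines part at 24 h, where experiment 1 reads 8997 and experiment 2 reads 32740 on probe set 1419573_a_at.

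Of the tested members, Lgals9 and Lgals3bp rose from 6 h on, Lgals3 rose modestly and Siglecf fell at 12 and 24 h, and Lgals1 passed at no time. With quantile normalization the calls of Lgals3 and Siglecf were lost, and the log2 fold change of Lgals3 was 0.02 at 12 h and 0.00 at 24 h. At most 0.147% of probe sets lay above Lgals3 on any array, and a scaling by rank leaves little room for change there. Lgals9 reached 4.27-fold its 0 h level and Lgals3bp 6.12-fold, while Siglecf went down 2.00-fold. At 1 and 3 h no member probe set of 6 passed in limma after Benjamini-Hochberg adjustment over all tested probe sets. At an unadjusted p under 0.05, 1 was higher at 1 h and 2 at 3 h, and none was lower. Among all 22519 tested probe sets 0.0533% were called higher at 1 h and 1.01% at 3 h, with 0% and 0.0444% called lower. At 6 h 2 of 6 were higher and 0 lower, against 3.62% and 1.95% of all tested probe sets, and 1 was lower at an unadjusted p under 0.05. At 12 h 3 were higher and 1 lower, against 9.32% and 18.7%, and at 24 h again 3 and 1, against 9.23% and 17.5%. The tested members other than Siglecf were bright, with at most 5.14% of probe sets above them on any array. Bright probe sets were called higher more often. Of the 450 with the highest mean signals, 155 were higher and 2 lower at 12 h, and 118 and 8 at 24 h. The median log2 fold change of the 6 probe sets was 0.05, 0.13, 0.23, 0.39 and 0.23 at 1, 3, 6, 12 and 24 h. Over all tested probe sets it was -0.02, -0.06, -0.16, -0.23 and -0.19. Over those 450 bright ones it was 0.29 at 12 h and 0.23 at 24 h, so the members' medians are not particular to this list.

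**Figure D2:**
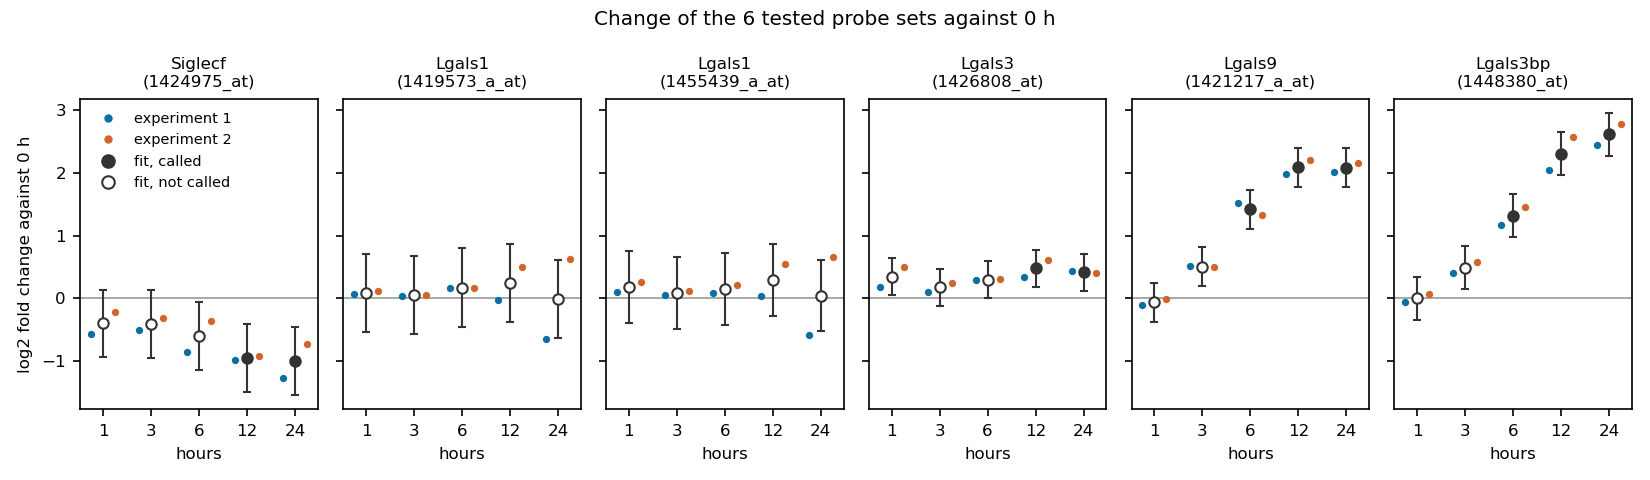
Change from 0 h on the log2 scale (log2 of signal plus 16) of the 6 tested probe sets at each time in hours. Large circles are the limma estimates with their 95% confidence intervals, filled where the adjusted p was under 0.05, and small dots are the ratios within experiment 1 (blue) and experiment 2 (orange). Filled circles appear for Lgals9 and Lgals3bp from 6 h and for Lgals3 and Siglecf at 12 and 24 h, and the Lgals1 dots lie on opposite sides of 0 at 24 h.

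Siglecf was the Siglec of the list that reached the testing limit, and it was lower at 12 and 24 h. Its probe set read 312 in experiment 1 and 371 in experiment 2 at 0 h, 204 and 315 after 1 h, and 214 and 295 after 3 h. It then read 166 and 285 after 6 h, 150 and 188 after 12 h, and 120 and 217 after 24 h. Every array from 3 h on was below both 0 h arrays, and experiment 2 was above experiment 1 at each time. The log2 fold change was -0.40 at 1 h, -0.41 at 3 h and -0.61 at 6 h (SE 0.24), with an adjusted p of 0.187 at 6 h in limma. It was -0.96 at 12 h (adjusted p = 0.0156) and -1.0 at 24 h (95% confidence interval -1.54 to -0.46, adjusted p = 0.0129). No step between neighbouring times passed for Siglecf, the widest being -0.40 from 0 to 1 h and -0.35 from 6 to 12 h (adjusted p = 0.514 for the latter), so the data do not place the decline in 1 interval. At 12 h the adjusted p was 0.138 without the 0 h array of experiment 1 (log2 fold change -0.79) and 0.0517 without that of experiment 2 (-1.12). It was 0.102 when the 12 h array of experiment 2 was left out (-0.83). At 24 h it was 0.118 without the 0 h array of experiment 1 (-0.84).

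Because Siglecf is a marker of eosinophils, their other markers are given beside it. None of the 5 eosinophil genes with a probe set reached the testing limit, and their summed signal was 33.2 to 90.3 on the 12 arrays. Epx, the eosinophil peroxidase, stayed at or under 35.7. The lower Siglecf signal thus stood beside eosinophil markers that were under the limit at every time. Among the 6 tested macrophage markers Fcgr1 and Mertk rose at 24 h (log2 fold change 2.71 and 1.29) and Mrc1, the mannose receptor, fell (-2.92). Adgre1 (0.04), Csf1r (0.04) and Marco (-0.02) did not pass at 24 h. The part of these markers in the Siglecf result was not tested.

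Siglec1 has 3 probe sets, all under the testing limit on average, and they are given as levels. Probe set 1427668_at read 3.10 and 10.0 at 0 h in experiments 1 and 2, 10.1 and 14.8 after 1 h, and 51.1 and 43.0 after 3 h. It then read 73.1 and 50.7 after 6 h, 84.3 and 21.9 after 12 h, and 125 and 143 after 24 h. Each array from 1 h on lay above both 0 h arrays of that probe set. Probe set 1422161_at read 40.3 and 7.00 at 0 h, 23.3 and 11.2 after 1 h, and 36.4 and 20.6 after 3 h. It then read 62.9 and 82.9 after 6 h, 17.4 and 21.8 after 12 h, and 115 and 69.6 after 24 h, so its 12 h arrays fell back into the 0 h range. Probe set 1427706_a_at read 58.1 and 14.6 at 0 h, 8.19 and 24.0 after 1 h, and 96.9 and 113 after 3 h. It then read 86.8 and 16.4 after 6 h, 81.0 and 68.4 after 12 h, and 73.3 and 106 after 24 h. The 1 h and 6 h arrays of the last probe set overlapped those at 0 h.

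When all probe sets were tested without a limit on signal, Siglec1 passed on 1427668_at at 24 h and on neither other probe set. The share of all probe sets called without that limit was not counted. On 1427668_at the log2 fold change was 2.74 (SE 0.52, adjusted p = 0.00551 in limma). Its 0 h signals, 3.10 and 10.0, were under the 16 added before taking logs. The size of this rise thus depends on that constant and is measured from signals far under the testing limit. The other 2 gave 1.56 (adjusted p = 0.0692) and 1.13 (adjusted p = 0.315) at that time. The 3 probe sets of the gene thus differ in their course from 1 to 12 h, at signals where the spread between the 2 experiments is wide. Siglece read between 5.70 and 20.4 over the 12 arrays, below the median of its array on every one. Its 0 h arrays read 19.2 and 11.3 and its 24 h arrays 14.5 and 7.41, and a change of Siglece was not measurable at this signal.

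Lgals9 encodes galectin-9, a tandem-repeat galectin with 2 different carbohydrate-binding domains, known as a ligand of TIM-3. Its probe set read 5916 in experiment 1 and 6452 in experiment 2 at 0 h, 5465 and 6390 after 1 h, and 8466 and 9081 after 3 h. It then read 16931 and 16256 after 6 h, 23382 and 29829 after 12 h, and 23930 and 28884 after 24 h. All arrays from 3 h on were above both 0 h arrays, and the last 2 times overlapped. The log2 fold change was -0.06 at 1 h and 0.50 at 3 h (adjusted p = 0.231), then 1.42 at 6 h (SE 0.14, adjusted p = 0.000173). It was 2.09 at 12 h (95% confidence interval 1.78 to 2.40, adjusted p = 5.42e-06) and 2.09 at 24 h (adjusted p = 6.43e-06), by limma.

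Between neighbouring times Lgals9 rose by 0.92 on the log2 scale from 3 to 6 h (adjusted p = 0.0206) and by 0.67 from 6 to 12 h (adjusted p = 0.0462). Among all tested probe sets 0.528% and 0.608% were called higher in these intervals. In both intervals 0.0622% and 1.13% of all were called lower, and no member was. The earlier step, from 1 to 3 h, was 0.57 (adjusted p = 0.149, with 0.861% of all called higher and 0.0666% lower), and the last one, from 12 to 24 h, was -0.01 (95% confidence interval -0.32 to 0.30), with 1.87% of all called higher and 2.25% lower. The call from 3 to 6 h was lost when any of the 4 arrays of that interval was left out, with steps of 0.78 to 1.06. The call from 6 to 12 h was lost without any single array of 0, 1, 3, 6 or 12 h, with steps of 0.53 to 0.81.

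Lgals3bp encodes a heavily glycosylated secreted protein (also known as CyCAP or Mac-2-binding protein) that binds galectin-3. Its signal was 4081 and 3481 at 0 h, 3903 and 3660 after 1 h, and 5376 and 5231 after 3 h. It was 9237 and 9558 after 6 h, 16862 and 20773 after 12 h, and 22282 and 24081 after 24 h. Every array from 3 h on was above both 0 h arrays, and in each experiment the 24 h array was the highest. The log2 fold change was 0.00 at 1 h and 0.49 at 3 h (adjusted p = 0.345), then 1.31 at 6 h (SE 0.15, adjusted p = 0.000606). It was 2.31 at 12 h (adjusted p = 5.4e-06) and 2.61 at 24 h (95% confidence interval 2.27 to 2.96, adjusted p = 2.6e-06).

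For Lgals3bp the step from 6 to 12 h was a rise of 0.99 (adjusted p = 0.0206), lost without either 3 h or 6 h array or the 12 h array of experiment 2, with steps of 0.82 to 1.01. The step from 3 to 6 h, 0.82, had an adjusted p of 0.0503, and leaving out either 24 h array brought it to 0.0111 or 0.0112. From 12 to 24 h the step was 0.31 (adjusted p = 0.28, 95% confidence interval -0.04 to 0.65). In the same interval Lgals9 read -0.01 with an interval of -0.32 to 0.30, and the difference between the 2 genes was not tested. The calls of Lgals9 and Lgals3bp at 6, 12 and 24 h against 0 h passed in 22 of 22 other settings.

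Lgals3 encodes galectin-3, the chimera-type galectin known as the macrophage antigen Mac-2 and the one after which Lgals3bp is named. Its log2 fold changes were smaller than those of Lgals3bp, with 95% confidence intervals that did not overlap at 6, 12 or 24 h. Its probe set read 26905 and 31005 at 0 h, 30429 and 43994 after 1 h, and 28721 and 36933 after 3 h. It then read 32918 and 38193 after 6 h, 34132 and 47452 after 12 h, and 36380 and 40936 after 24 h. Arrays from 6 h on lay above both 0 h arrays, and the 1 h and 3 h arrays overlapped with them. The log2 fold change was 0.34 at 1 h, 0.17 at 3 h and 0.30 at 6 h (SE 0.13, adjusted p = 0.24 at 6 h), then 0.48 at 12 h (adjusted p = 0.023) and 0.42 at 24 h (adjusted p = 0.0414).

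These Lgals3 calls are near the limit and depend on the scaling between arrays and on the replicate block. With quantile normalization the log2 fold change was 0.02 at 12 h (adjusted p = 0.918) and 0.00 at 24 h (adjusted p = 0.99). That scaling sets each signal by its rank, and only 0.0488 to 0.147% of probe sets lay above Lgals3 on the arrays. At so high a rank it can show little change whatever the signals did, so it cannot decide whether Lgals3 rose. Without the experiment as a replicate block the adjusted p was 0.267 at 12 h and 0.344 at 24 h, and neither call was kept. The 450 probe sets with the highest mean signals, 1% of the array, had a median log2 fold change of 0.29 at 12 h and 0.23 at 24 h, with quartiles of 0.02 and 0.52 after 12 h. Of those 450, 155 were called higher and 2 lower at 12 h. The Lgals3 call at 12 h was lost without either 0 h array (0.55 with that of experiment 1 left out and 0.41 with that of experiment 2) and when experiment 2 lacked its 12 h array (0.39). At 24 h it was lost without any single array of 0, 1, 3 or 6 h or the 24 h array of experiment 1, with values of 0.32 to 0.49.

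Lgals1 encodes galectin-1, a prototype galectin that forms homodimers, and it has 2 probe sets. On 1419573_a_at the signals were 14161 and 21095 at 0 h, 14790 and 22858 after 1 h, and 14599 and 21959 after 3 h. They were 15937 and 23765 after 6 h, 13945 and 29930 after 12 h, and 8997 and 32740 after 24 h. On 1455439_a_at they were 23017 and 30225 at 0 h, 24640 and 36409 after 1 h, and 23780 and 32727 after 3 h. The later signals there were 24365 and 35033 after 6 h, 23678 and 44039 after 12 h, and 15414 and 47891 after 24 h. Both probe sets show the same parting of the experiments, with the 24 h array the lowest of experiment 1 and the highest of experiment 2.

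The fitted log2 fold change of Lgals1 stayed between -0.01 and 0.29 on the 2 probe sets, with adjusted p of 0.566 and 0.437 after 12 h and 0.985 and 0.924 after 24 h. The 95% confidence interval at 24 h ran from -0.64 to 0.62 on 1419573_a_at and from -0.53 to 0.61 on 1455439_a_at, so a change of up to that size in either direction is within the error. Within experiment 1 the log2 ratio of 24 h to 0 h was -0.65 and -0.58 on the 2 probe sets, and within experiment 2 it was 0.63 and 0.66. Leaving out the 24 h array of experiment 1 called Lgals1 higher on both probe sets (0.57 and 0.58), and leaving out that of experiment 2 called it lower (-0.59 and -0.49). Among all tested probe sets, 531 (2.36%) were at least 0.5 down in experiment 1 and at least 0.5 up in experiment 2 at 24 h, and 13 of the 450 brightest were. The 2 probe sets read the same RNA and are not replicates.

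The members' courses were set beside each other over the 12 arrays, after removing the mean of each experiment. Lgals9 and Lgals3bp ran closest, with r = 0.98, and the 2 probe sets of Lgals1 also gave 0.98. Lgals3 correlated with Lgals9 at 0.69 and with Lgals3bp at 0.70. Siglecf ran opposite to Lgals9 and Lgals3bp (-0.89 with both) and to Lgals3 (-0.84). Lgals1 correlated with Siglecf, Lgals3, Lgals9 and Lgals3bp at -0.06 to 0.19. The 12 points share their times and experiments, so these values describe shape only, and no p is given.

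The genes whose course was most like each member were ranked over the same 12 arrays among tested probe sets that name 1 other gene. For Lgals9 they were Ifitm3, Psmb9 and Epsti1 (each r = 0.997), and for Lgals3bp Bst2 (0.998), Ly6e (0.996) and Tspo (0.994). Such likeness was common, since 657 probe sets reached an r of 0.9 with Lgals9 and 634 with Lgals3bp. Lgals3 was most like Psap (0.989), Actb (0.983) and Tmsb10 (0.973), with 37 probe sets at 0.9 or more. Lgals1 was most like Ccl17 (0.972), Gm12338 (0.956) and Sf3b1 (0.955), with 21, and Siglecf was most like Huwe1 (0.958), Hdac2 (0.956) and Mcemp1 (0.953), with 161. When each array was set against its own experiment at 0 h instead, over 10 arrays, the 3 leading genes stayed the same for Lgals3bp, 2 of 3 for Lgals3 and Lgals1, 1 of 3 for Lgals9 and 0 of 3 for Siglecf.

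Of 66 related genes, listed by role, 54 had a tested probe set, and 1 probe set per gene was counted. At 12 h 11 were higher and 8 lower, beside the 9.32% and 18.7% of all tested probe sets, and at 24 h 11 were higher and 7 lower, beside 9.23% and 17.5%. At 6 h 5 were higher and 0 lower in limma, beside 3.62% and 1.95% of all, with 7 lower at an unadjusted p under 0.05. None passed at 1 and 3 h, where 1 and 4 were higher and 1 was lower each time at an unadjusted p under 0.05. Their median log2 fold change was -0.06 at 12 h and -0.21 at 24 h, beside -0.23 and -0.19 over all tested probe sets. The counts by role that follow stand beside the same shares of all tested probe sets.

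**Figure D3:**
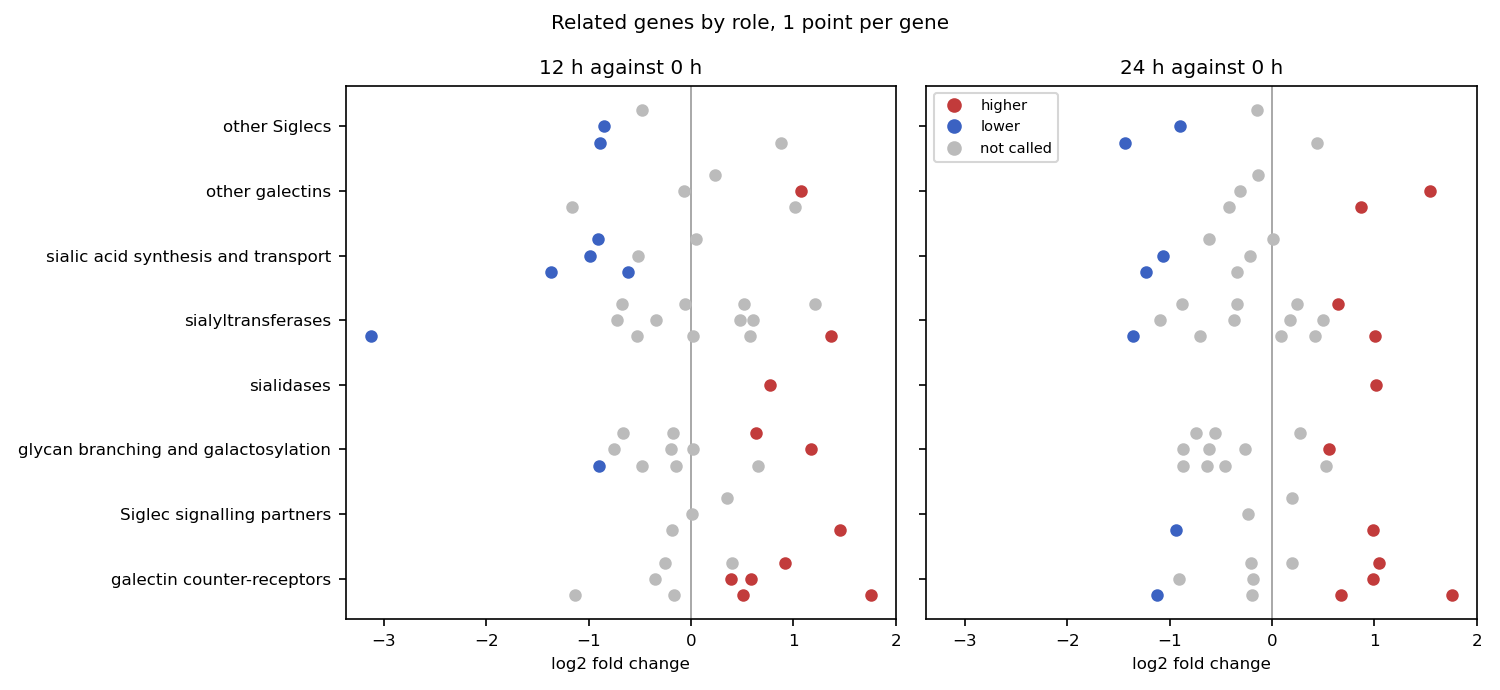
Log2 fold change of the 54 tested related genes at 12 h (left) and 24 h (right) against 0 h, 1 point per gene, by role. Red points passed as higher, blue as lower and grey did not pass, and the vertical scatter within a role has no meaning. The sialic acid synthesis genes hold 4 blue points at 12 h, and the galectin counter-receptors hold 5 red ones.

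Among the other Siglecs 4 of 6 genes were tested, and 2 were lower at 12 h and 2 at 24 h, Cd33 at both times. Cd33, a myeloid Siglec, read 1877 and 2314 at 0 h, 856 and 1544 after 12 h, and 598 and 964 after 24 h. It fell, with a log2 fold change of -0.85 at 12 h (adjusted p = 0.00719) that reached -1.44 by 24 h (adjusted p = 0.000434). Cd22, best known from B cells, fell by 0.89 at 12 h (adjusted p = 0.012), and none of the 3 B cell markers with a probe set reached the testing limit. Mag, the myelin-associated glycoprotein, fell by 0.90 at 24 h (adjusted p = 0.0215). Siglech, a marker of plasmacytoid DC, stayed at or under 35.8. Among the other galectins 5 of 6 genes were tested, and Lgals8, a tandem-repeat galectin, rose at 6 h (0.94), 12 h (1.08, adjusted p = 0.00115) and 24 h (0.87, adjusted p = 0.00378). Lgals7 rose at 6 h (1.61) and 24 h (1.54), at signals of 199 or less. It read 46.9 in experiment 1 and 27.8 in experiment 2 at 0 h, both under the testing limit. Its mean reached that limit through later arrays, with 178 and 116 after 6 h and 199 and 92.5 after 24 h. Both Lgals7 rises are thus measured from signals under the limit.

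On the side of the ligands, sialic acid is made in the cytosol, activated in the nucleus and carried into the Golgi. All 6 genes of that route and of sialic acid breakdown were tested, and 4 were lower at 12 h and 2 at 24 h. Gne, the key enzyme of the pathway, fell by 0.99 at 12 h (adjusted p = 0.0204) and was at 0.01 at 24 h. Nanp, the phosphatase that releases sialic acid, fell, with a log2 fold change of -1.37 at 12 h (adjusted p = 0.0151) and -1.23 at 24 h (adjusted p = 0.025). Cmas, which activates it, fell by 0.61 at 12 h (adjusted p = 0.028), and Slc35a1, the Golgi transporter, fell by 0.91 at 12 h (adjusted p = 0.0172). Npl, the lyase that degrades sialic acid, fell by 1.06 at 24 h (adjusted p = 0.018). Neu1, the lysosomal sialidase and the tested 1 of 4 sialidase genes, rose by 0.78 at 12 h (adjusted p = 0.0173) and by 1.01 at 24 h (adjusted p = 0.00506).

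Of 17 sialyltransferase genes 13 were tested, and at 12 h 1 passed in each direction, while at 24 h 2 were higher and 1 was lower. St3gal1, which caps core O-glycans, rose by 1.36 at 12 h (adjusted p = 0.00907) and by 1.01 at 24 h (adjusted p = 0.0355). St6gal1 makes the alpha-2,6-linked sialic acid that Cd22 binds. It read 885 and 448 at 0 h, 117 and 24.96 after 12 h, and 1125 and 92.3 after 24 h. It fell by 3.13 at 12 h (SE 0.50, adjusted p = 0.00156) and was at -0.88 at 24 h (adjusted p = 0.228). The 24.96 lies under the testing limit, and the 12 h value ranged from -3.54 to -2.46 over 22 other settings. From 0 to 24 h the signal rose in experiment 1 and fell in experiment 2, so -0.88 is a mean of opposite courses. St3gal5, the GM3 ganglioside synthase, fell by 1.36 at 24 h (adjusted p = 0.00333). St6galnac4 rose by 0.65 at 24 h (adjusted p = 0.0449).

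Galectin ligands depend on branching and on galactose addition, and 11 of 12 such genes were tested. At 12 h 2 were higher and 1 lower, and at 24 h 1 was higher. Over all 18 tested probe sets of these genes 4 were higher and 4 lower at 12 h, and at 24 h 2 were higher and 4 lower, so the balance at 24 h turns with the choice of probe set. B3gnt2, which extends poly-N-acetyllactosamine chains, rose by 1.17 at 12 h (adjusted p = 0.00144), and Mgat1, which begins complex N-glycans, by 0.63 at 12 h (adjusted p = 0.0181) and 0.56 at 24 h (adjusted p = 0.0316). C1galt1, which makes the core 1 O-glycan, fell by 0.90 at 12 h (adjusted p = 0.0287).

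Among the genes for proteins that galectins bind, all 10 were tested, with 5 higher at 12 h, and with 4 higher beside 1 lower at 24 h. Over all 22 tested probe sets of these genes 12 were higher and 0 lower at 12 h, and 9 were higher and 4 lower at 24 h. Cd47, the ligand of SIRP-alpha, read 4213 and 5321 at 0 h, 15051 and 17123 after 12 h, and 17659 and 14525 after 24 h. It rose by 1.76 at 12 h (SE 0.17, adjusted p = 9.48e-05) and by 1.75 at 24 h (adjusted p = 0.000104). The lysosomal membrane proteins Lamp2 and Lamp1 rose by 0.92 and 0.39 after 12 h and by 1.05 and 0.67 after 24 h, Lamp2 with adjusted p of 0.00142 and 0.000713 and Lamp1 with 0.0392 and 0.00313. With quantile normalization Lamp1 was at 0.092 after 12 h (adjusted p = 0.657) and at 0.36 after 24 h (adjusted p = 0.0723), so both of its calls depend on the scaling. Lamp1 read 13407 to 31397 over the 12 arrays, and at signals that high a scaling by rank can itself shrink a change. Lamp1 lies outside the rule for naming genes and was chosen after its values were seen. Selplg (PSGL-1) rose by 0.59 at 12 h (adjusted p = 0.0109) and by 0.99 at 24 h (adjusted p = 0.00076). Itgb1 rose by 0.50 at 12 h (adjusted p = 0.0269). With quantile normalization Selplg at 12 h (0.38, adjusted p = 0.0571) and Itgb1 at 12 h (0.32, adjusted p = 0.12) did not pass either. Cd44, the hyaluronan receptor, fell by 1.12 at 24 h (adjusted p = 0.00301). Of the Siglec signalling partners 4 of 5 genes were tested, and Ptpn6, the phosphatase SHP-1, rose by 0.95 at 6 h, 1.46 at 12 h (adjusted p = 0.000341) and 0.98 at 24 h (adjusted p = 0.00324). Ptpn11, the phosphatase SHP-2, fell by 0.94 at 24 h (adjusted p = 0.0411).

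Not all of these 37 calls at 12 and 24 h were equally firm. Those of Cd33 at 24 h, Lgals8, B3gnt2 and Ptpn6 at 12 h, Cd44 at 24 h, and Cd47 and Lamp2 at both times, 9 in all, were kept in all alternative fits of single values. Another 21 were lost when 1 array was left out, and 7 were lost in other settings alone. Without the replicate block 23 of the 37 were lost. Among them, with no loss when single arrays were left out, were St6gal1 at 12 h (adjusted p = 0.0798) and St3gal5 (0.0626), Neu1 (0.0693) and Lamp1 (0.279) at 24 h. The others of these 7, Lgals8 (0.108), Ptpn6 (0.0761) and Selplg (0.0578) at 24 h, were lost with only the 4 arrays of the comparison. Leaving out the 0 h array of experiment 1 lost Cd22 (-0.73), Cd33 (-0.65), Gne (-0.89), Nanp (-1.42), Cmas (-0.53), Slc35a1 (-0.89), St3gal1 (1.33), Neu1 (0.81), Mgat1 (0.51), C1galt1 (-0.96), Lamp1 (0.44) and Itgb1 (0.57) at 12 h. It also lost Mag (-0.69), Lgals7 (1.48), Nanp (-1.28), Npl (-0.85), St3gal1 (0.97), St6galnac4 (0.79), Mgat1 (0.44) and Ptpn11 (-1.09) at 24 h. Selplg at 12 h was lost without the 0 h array of experiment 2 (0.47), and so were the calls just listed other than those of Cd22 and Cd33. Without the 24 h array of experiment 2 the 24 h values were -0.53 for Nanp, 0.55 for St3gal1 and -0.31 for Ptpn11, and without that of experiment 1 Npl was at -0.67. Without the 12 h array of experiment 1 the 12 h values were -0.58 for Cd22 and 0.86 for St3gal1. The directions of these 37 calls were the same in every alternative.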

How the data were processed

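RNA of 12 cultures (2 experiments at 6 times) was hybridized to Affymetrix mouse genome arrays. The authors made the deposited intensity values with MAS5.0, separately for each experiment per the study's methods, on a linear scale. A linear model of log2(signal + 16) with time as a factor and the experiment as a replicate block was fitted on all 12 arrays (R 4.3.3, limma 3.58.1: lmFit, contrasts.fit and eBayes with an intensity trend). Of 45037 probe sets, the 22519 whose mean signal reached the median were tested. The 64 control probe sets were left out, and a probe set was named when its annotation gave 1 symbol (34945 of them, 932 with several and 9160 with none). P-values were adjusted by Benjamini-Hochberg over all tested probe sets and called at 0.05, with 5 residual and 5.24 prior degrees of freedom. The experiment block takes out the overall difference between the 2 experiments. The p-values rest on how far the changes over time differed between them, pooled over the 6 times. The prior degrees of freedom come from all tested probe sets. With 2 arrays at each time, these p-values are imprecise.

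The pairing of arrays by experiment comes from the study's methods, and arrays of an experiment deviated together from the means of their times (r = 0.256 to 0.66, 15 pairs of times). The members, the related genes and the cell type markers were chosen with earlier results of these data known. All members are named. Of the related genes, up to 4 per role with the smallest p at 12 h or at 24 h are named (Lamp1 beside these), and for likeness the 3 genes with the highest Pearson r over 12 arrays. For related genes the tested probe set with the highest mean signal was used. Markers of mast cells and basophils (0 of 7 genes with a probe set reached the testing limit), neutrophils (2 of 7), plasmacytoid DC (2 of 5), T and NK cells (0 of 4) and erythroid cells (1 of 2) were also read. Alternatives changed the pseudocount, the limit on signal, the block, the variance trend, the scaling, the arrays in the fit and the call rule. The fit was tested on simulated data.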

Additional observations from a re-analysis of the deposited data

Results flagged for a closer look

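Lgals1 moved in opposite directions in the 2 experiments from 0 to 24 h. On probe set 1419573_a_at the log2 ratio of 24 h to 0 h was -0.65 in experiment 1 and 0.63 in experiment 2. On probe set 1455439_a_at it was -0.58 in experiment 1 and 0.66 in experiment 2. Each ratio rests on 1 array at each time, so the difference between the experiments was not tested.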

How the results depend on the processing

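The calls of Lgals9 and Lgals3bp at 6, 12 and 24 h passed in 22 of 22 alternatives. Siglecf at 12 h passed in 16 of 21 and at 24 h in 17 of 21, with values of -1.12 to -0.66 and -1.17 to -0.70, and Lgals3 passed in 14 of 22 at 12 h and 7 of 22 at 24 h. Without the replicate block 0 member probe sets were lower at 12 or 24 h, 0 were higher from 3 to 6 h and 0 from 6 to 12 h, and Lgals3 passed at neither 12 h (adjusted p = 0.267) nor 24 h (0.344). It moved the number of all probe sets called higher at 12 h from 2098 to 1079, and lower from 4205 to 1936, and at 24 h from 2078 to 953 and from 3933 to 1671. The count lower at 12 h, 1, was also 0 with the limit at the upper quartile (which leaves Siglecf untested), with quantile normalization and under the rule that asks for at least 2-fold, and 0 to 1 with 1 array left out. The count lower at 24 h, 1, was 0 with the upper quartile, quantile normalization or only the 4 arrays of the comparison, and 0 to 3 with 1 array left out. With only those 4 arrays 2 were higher at 3 h than at 0 h and 2 higher at 3 h than at 1 h, where the count with 1 array left out was 0 to 1. From 3 to 6 h, where 1 was higher, the count was 2 with a pseudocount of 64, the upper quartile, centring on the median, quantile normalization or 4 arrays, 0 with no variance trend or at least 2-fold, and 0 to 2 with 1 array left out. From 6 to 12 h, where 2 were higher, it was 1 with no limit on signal, centring or quantile normalization, 0 with no variance trend, without the 1 h arrays or at least 2-fold, and 0 to 2 with 1 array left out. From 12 to 24 h 0 to 2 were lower with 1 array left out, the 2 being the probe sets of Lgals1 without the 24 h array of experiment 2.

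Signs turned only in values that had not passed. With quantile normalization Lgals1 was at -0.068 and -0.078 after 1 h, -0.044 and -0.0064 after 3 h, -0.10 and -0.13 after 12 h on 1419573_a_at and 1455439_a_at, at -0.27 after 24 h on 1455439_a_at, and Lgals3bp at -0.000278 at 1 h. With arrays centred on their median Lgals1 on 1419573_a_at was at -0.020 at 3 h and 0.12 at 24 h, and the Lgals9 step from 12 to 24 h at 0.035. With 1 array left out, 1419573_a_at ranged from -0.10 to 0.28 at 1 h, -0.14 to 0.24 at 3 h, -0.017 to 0.36 at 6 h and -0.59 to 0.57 at 24 h. Likewise 1455439_a_at ranged from -0.028 to 0.39, -0.13 to 0.29, -0.064 to 0.36 and -0.49 to 0.58. Lgals3bp at 1 h ranged from -0.14 to 0.15, and the last Lgals9 step from -0.12 to 0.10. The cause of these shifts was not tested. Centring raised the median of all probe sets at 24 h by 0.13 and quantile normalization raised it by 0.14 at 12 h and 0.13 at 24 h. With centring the calls over all probe sets were 828 higher and 240 lower at 6 h, beside 815 and 438, and 2417 and 2736 at 24 h, beside 2078 and 3933. With all tested probe sets of the related genes, 95, the counts were 23 higher and 13 lower at 12 h and 19 and 16 at 24 h. Low signal limits what can be said of Siglec1 and Siglece.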
